A study of Mus musculus with 9 samples.

Results

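The genes described here serve glycolysis, the pathway that turns glucose into pyruvate and lactate, or are known to be switched on in low oxygen. They were a list of 31 gene symbols that included Hif1a, the gene of the oxygen-regulated subunit of the transcription factor HIF1, and 30 genes that are its targets or act beside them. The list was chosen by function, by symbol, with earlier results of these data known. Each of the 31 was found in the table of 56953 genes. Of these, 29 reached 1 TPM (transcripts of a gene per a fixed total of transcripts, corrected for length) in at least 3 of the 9 libraries and were tested among 14215 genes. The other two, Car9 and Eno2, stayed too low to test. Aldoa had a second row, under 1 TPM in every library, which was not used.

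The libraries were made from polyA RNA of primary fibroblasts from hearts of adult male C57BL/6N mice of wildtype genotype, with 3 libraries in each of 3 groups. Ad-JP2 cultures received an adenovirus carrying JP2 (junctophilin-2, encoded by Jph2, which ties the endoplasmic reticulum to the plasma membrane). Ad-shJP2 cultures received an adenovirus with an shRNA against JP2, and Ad-GFP cultures, the reference for both, a GFP adenovirus. All were infected in serum-free medium for a short period, returned to medium with serum and harvested 72 h after infection. All 3 groups therefore carried an adenovirus, no uninfected cells were analysed here, and the labels state neither an oxygen tension nor whether replicates were separate cultures or animals.

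Jph2, the gene both constructs act on, was measured at 737, 691 and 637 TPM in Ad-JP2 libraries, 116, 123 and 119 in libraries labelled Ad-shJP2 and 132, 128 and 128 in Ad-GFP libraries. Ad-JP2 libraries held 5.32 times the Ad-GFP level of this message, whereas in libraries labelled Ad-shJP2 its log2 fold change of -0.11 did not pass (limma adjusted p = 0.0724). Its values there did not overlap with those of Ad-GFP, and it was called lower with quantile normalization (-0.13, adjusted p = 0.0243). With median-of-ratios scaling it stood at 0.0005 (adjusted p = 0.993), and after a correction for GC content and length at -0.07, both without a call. The libraries are therefore called by their label. Fibroblast markers summed to 4230.3 to 4375 TPM in Ad-JP2 libraries, 2522 to 2593 in Ad-shJP2 and 4084 to 4141 in Ad-GFP over 8 genes. The cultures also held macrophage messages: 8 macrophage and leukocyte markers summed to 2479.9 to 2521 TPM in Ad-JP2, 3173 to 3222 in Ad-shJP2 and 2711 to 2748 in Ad-GFP libraries. Of 8 heart muscle markers only Tnnt2 was high enough to test, and Myh7 stayed under 0.1 TPM in all libraries, as did the pericyte markers Kcnj8 and Abcc9. In bulk RNA of this kind, fewer cells of a type and less RNA per cell cannot be told apart. Approximate depths read from the low values were 36.9 to 41.2 M reads in Ad-JP2, 21.3 to 33.2 M in Ad-shJP2 and 40.6 to 45.8 M in Ad-GFP libraries.

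HIF1 is controlled mainly through its protein. In normal oxygen, prolyl hydroxylases of the Egln family mark the Hif1a protein for destruction by the VHL ubiquitin ligase. In low oxygen the protein persists, pairs with Arnt and binds promoters and enhancers at a short core, ACGTG or GCGTG. Known targets carry glucose in, run every step of glycolysis, export lactate, divert pyruvate from mitochondria and remove mitochondria. The libraries measure message, so they hold no information on the amount of Hif1a protein.

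The promoters of Hif1a and of the 4 members with the largest called rises in libraries labelled Ad-shJP2 are shown because Hif1a fell there while these rose. Each is the 250 bases before the annotated start, from RefSeq on build GRCm38.p6, read 5′ to 3′ on the strand of the gene. Capitals mark every match to ACGTG or GCGTG on either strand, so a reverse match reads CACGT or CACGC, and a CACGTG palindrome holds a match on both strands. The windows are chr12:73907617-73907866 (plus strand) for Hif1a, chr11:120948817-120949066 (plus strand) for Slc16a3, chr12:54203875-54204124 (minus strand) for Egln3, chr10:59951771-59952020 (minus strand) for Ddit4 and chr4:119108495-119108744 (plus strand) for Slc2a1.
Hif1a: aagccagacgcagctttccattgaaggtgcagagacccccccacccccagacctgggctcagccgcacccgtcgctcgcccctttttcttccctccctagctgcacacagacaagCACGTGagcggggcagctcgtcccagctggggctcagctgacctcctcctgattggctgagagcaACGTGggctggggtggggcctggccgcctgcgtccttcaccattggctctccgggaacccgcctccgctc
Slc16a3: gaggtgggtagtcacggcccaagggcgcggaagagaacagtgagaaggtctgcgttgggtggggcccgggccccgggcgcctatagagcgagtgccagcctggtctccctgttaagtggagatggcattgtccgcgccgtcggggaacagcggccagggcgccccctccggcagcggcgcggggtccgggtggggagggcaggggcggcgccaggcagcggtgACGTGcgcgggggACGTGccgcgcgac
Egln3: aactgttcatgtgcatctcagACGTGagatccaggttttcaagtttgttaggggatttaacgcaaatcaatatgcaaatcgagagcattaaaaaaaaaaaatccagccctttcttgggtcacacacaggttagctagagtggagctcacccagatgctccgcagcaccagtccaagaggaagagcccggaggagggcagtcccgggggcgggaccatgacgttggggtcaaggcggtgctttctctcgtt
Ddit4: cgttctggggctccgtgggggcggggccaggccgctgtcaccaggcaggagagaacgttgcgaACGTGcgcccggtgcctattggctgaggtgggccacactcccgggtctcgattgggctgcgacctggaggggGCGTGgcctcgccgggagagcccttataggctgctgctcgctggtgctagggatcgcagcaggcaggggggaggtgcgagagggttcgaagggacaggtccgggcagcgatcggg
Slc2a1: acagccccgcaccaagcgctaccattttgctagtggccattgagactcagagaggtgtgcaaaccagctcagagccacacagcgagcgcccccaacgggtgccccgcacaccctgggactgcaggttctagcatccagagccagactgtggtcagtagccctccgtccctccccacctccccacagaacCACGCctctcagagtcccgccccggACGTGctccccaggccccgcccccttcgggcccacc
Both Slc16a3 matches are ACGTG within 27 bases of the start, while the match of Egln3 begins 229 bases before it. Hif1a itself had 3 matches, a pair of them from a CACGTG. Of 29 members with a promoter in the table, 23 held a match in this window, against 57.5% of 9432 tested genes and 38.6% of all 27025 genes with a promoter, 1 promoter a gene. Rises and falls in libraries labelled Ad-shJP2 were not divided by a match. Hk1, Aldoa, Tpi1 and Pkm, called higher there, held 0 matches, and the other members called higher held at least 1. Egln1 (2 matches), Pfkm (2) and Pfkfb3 (1) were called lower. The motif is short and rich in CpG, and a match is a description of letters and not of binding.

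The enzymes of glycolysis were among the abundant messages of these cells. In Ad-GFP libraries Aldoa (aldolase A) averaged 1687 ± 11.1 TPM, Gapdh 1530.5 ± 10.5, Pkm (pyruvate kinase) 1349.9 ± 3.79 and Ldha (lactate dehydrogenase A) 1273 ± 3.37 (SD, n = 3). Since TPM is per length, levels can be set beside each other. Aldolase C (Aldoc, 2.36 ± 0.165 TPM) and the neuronal enolase Eno2 (0.422 ± 0.0933 TPM) were far below their relatives Aldoa and Eno1. Hif1a, at 14.4 ± 0.749 TPM, ranked 23 of 31. Summed, the 31 members made up 0.851% to 0.865% of all TPM in Ad-JP2 libraries, 1.10% to 1.11% in libraries labelled Ad-shJP2 and 0.860% to 0.865% in Ad-GFP libraries. Ad-shJP2 thus stood above both other groups with no overlap.

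**Figure D1:**
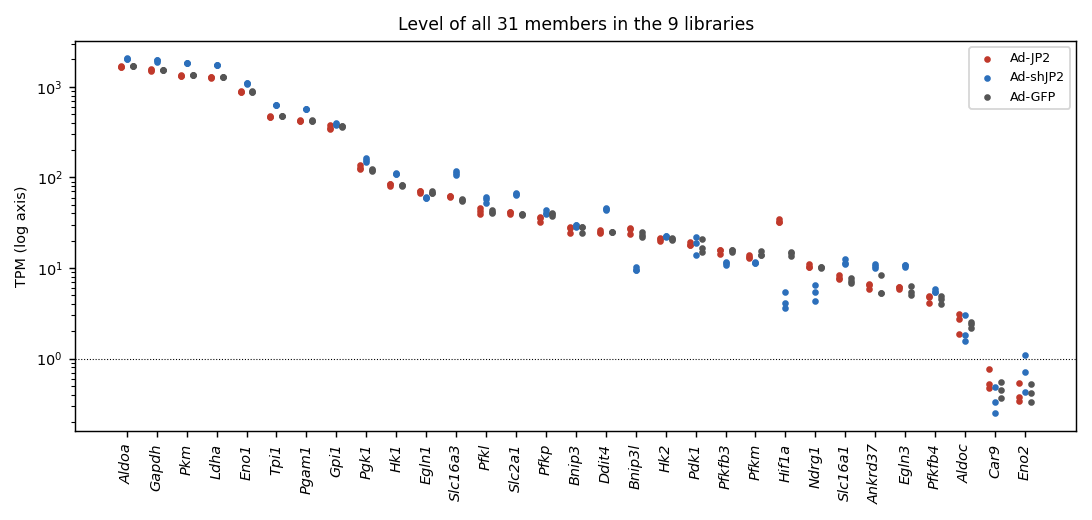
TPM of the 31 members on a log axis, ordered by their Ad-GFP mean, with a point for each library of Ad-JP2, Ad-shJP2 and Ad-GFP; the dotted line is 1 TPM. Most members keep their place in all groups, while Hif1a spans 3.62 to 34.5 TPM and Car9 and Eno2 lie around or below 1 TPM.

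Hif1a message moved in opposite directions with the 2 JP2 viruses. It stood at 32.4, 34.5 and 32.1 TPM in Ad-JP2 libraries, 4.16, 3.62 and 5.45 in libraries labelled Ad-shJP2 and 15.0, 13.5 and 14.6 in Ad-GFP libraries. No library of any group overlapped with those of another, and Ad-GFP lay between. Folds here are ratios of mean TPM, and the log2 values beside them are on the log2(TPM + 1) scale. Ad-JP2 libraries held 2.29 times the Ad-GFP level of Hif1a (1.14 in log2, with an SE of 0.11 and a limma adjusted p = 0.000142). It was 3.26-fold lower in libraries labelled Ad-shJP2 than in Ad-GFP (-1.52, SE 0.11, adjusted p = 3.3e-06). Between Ad-JP2 and Ad-shJP2 it differed 7.49-fold (2.67, adjusted p = 5.9e-08). Of 14215 genes, 196 had a log2 fold change at least as high in Ad-JP2, and 208 one at least as low in Ad-shJP2, Hif1a included. An exact two-sided permutation test of 3 against 3 libraries gave p = 0.1 for each comparison, the smallest it can give.

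Hif1a was listed with a long length, and its transcripts were low in GC. The change of genes in general went with both properties. Hif1a had a deposited length of 4653 bases, which the correction below used, and a shorter deposited effective length of 2442 bases. Its GC content was 41.3%, against a median of 53.7% over the 29 members tested and 50.8% over all genes tested. The 2082 genes with 40% to 45% GC had a median log2 fold change of 0.26 in Ad-JP2 against Ad-GFP and -0.43 in Ad-shJP2 against Ad-GFP, while those with 55% to 60% had -0.03 and 0.03. After the trend on GC content and length was removed, Hif1a was 0.67 higher in Ad-JP2 (adjusted p = 0.00308) and -0.96 in Ad-shJP2 (adjusted p = 5.1e-05), both against Ad-GFP, and so smaller than before with calls and directions kept.

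**Figure D2:**
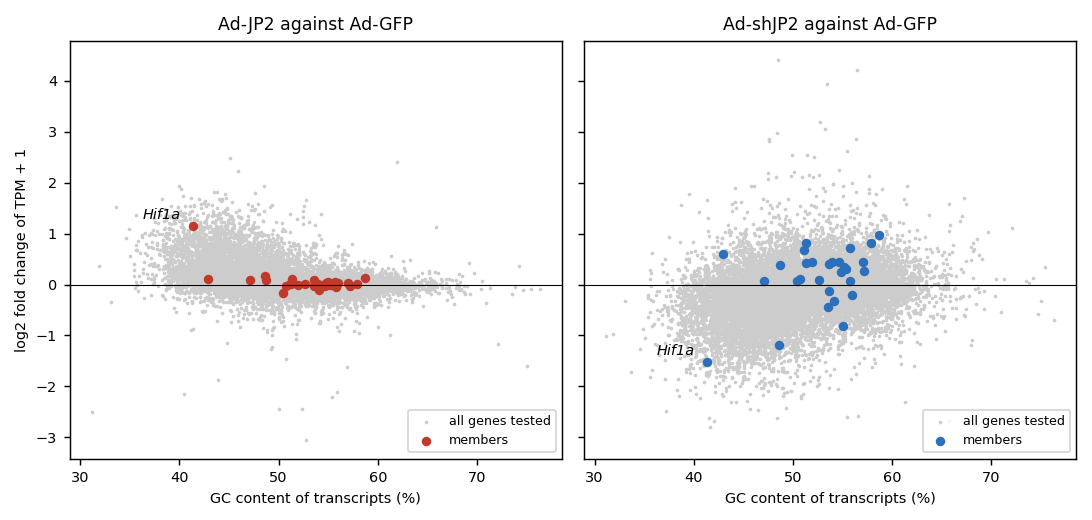
Log2 fold change against the GC content of a gene's transcripts (%), for Ad-JP2 (left) and Ad-shJP2 (right) against Ad-GFP; grey points are the genes tested that had a GC content, coloured points the 29 members tested. Hif1a, at 41.3% GC, lies in the range where many genes were higher in Ad-JP2 and lower in Ad-shJP2, and most members lie at higher GC.

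No member other than Hif1a was called in Ad-JP2 against Ad-GFP. Of the 28 tested besides Hif1a, 0 were called higher and 0 lower against Ad-GFP by limma (2 higher and 1 lower at an unadjusted p under 0.05), where 15% of all genes were called, 13.4% higher and 1.64% lower. Of all genes 1902 were higher and 233 lower, against 1462 higher and 748 lower with quantile normalization. The median log2 fold change of these 28 was 0.01, against 0.01 over all genes. Their values ran from -0.16 for Pfkp to 0.16 for Bnip3l, and 6 members, Hif1a included, had no overlap of library values, where 32.2% of all genes had none.

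The abundant enzymes varied little between libraries. Ldha had 1282, 1276 and 1251 TPM in Ad-JP2 libraries, against 1276, 1274 and 1269.5 in Ad-GFP libraries (a difference in log2 of -0.004, SE 0.02, limma adjusted p = 0.919). Pkm, Aldoa, Tpi1, Eno1, Gapdh and Pgam1 had log2 fold changes between -0.03 and 0.01, each with an SE of 0.01 to 0.02, and none passed. Slc16a3, the carrier that exports lactate, was 61.9, 60.6 and 61.7 TPM in Ad-JP2, against 58.2, 54.8 and 56.4 in Ad-GFP, without overlap, and did not pass either (0.12, adjusted p = 0.139). Under the GC and length correction, which moved the median of all genes, at 0.01 without it, to 0.07, 12 members were called higher and 1 lower, where 15.2% of all genes with a GC content were called higher and 3.18% lower. The rises were 0.08 for Pkm to 0.25 for Slc16a3 among members other than Hif1a, with Gapdh at 0.22 and Ldha at 0.14, and the fall was that of Slc16a1 (-0.29).

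**Figure D3:**
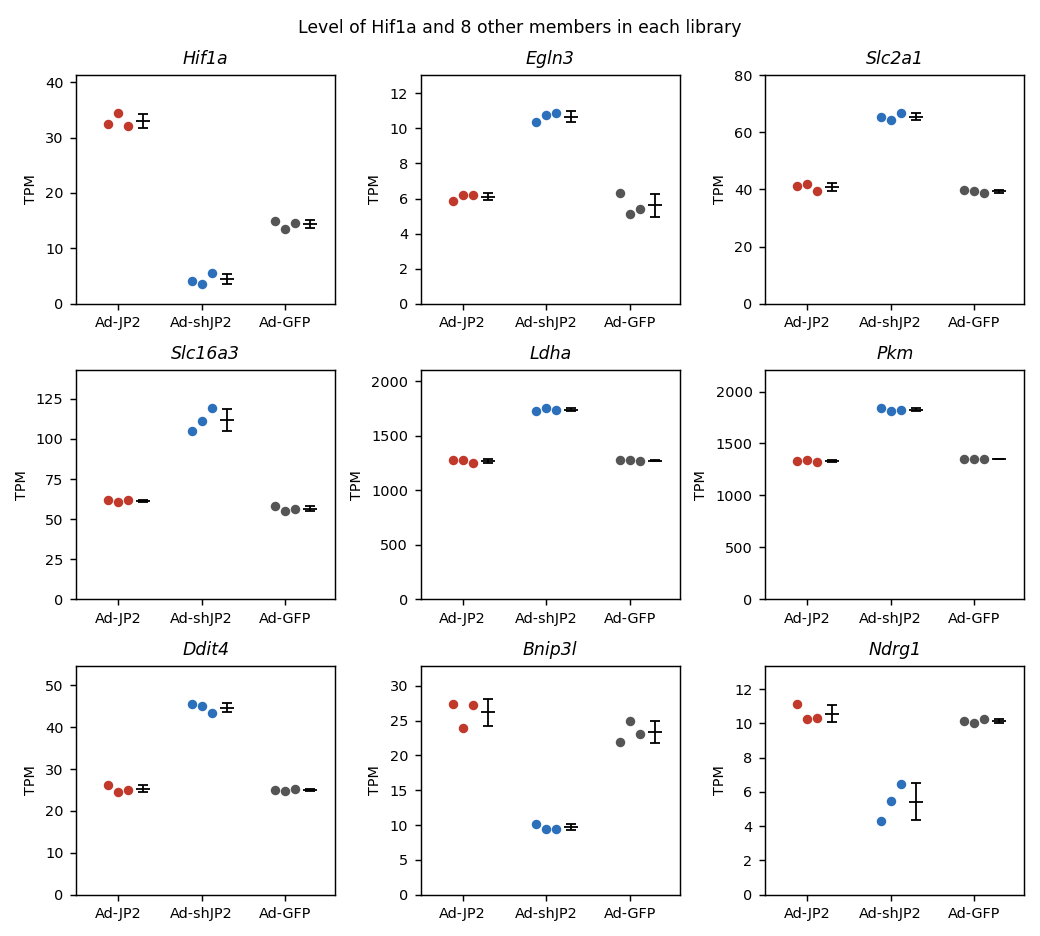
TPM of Hif1a and 8 other members in each library (points), with the group mean and SD beside them (bar, n = 3), on axes that start at 0. Hif1a is highest in Ad-JP2 and lowest in Ad-shJP2; Egln3, Slc2a1, Slc16a3, Ldha, Pkm and Ddit4 are highest in the libraries labelled Ad-shJP2, and Bnip3l and Ndrg1 are low there.

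In libraries labelled Ad-shJP2, where Hif1a fell, most other members rose. Of the 28 besides Hif1a, 17 were called higher and 5 lower than in Ad-GFP by limma, where 59.4% of all genes were called, 21.8% higher and 37.7% lower. Their median log2 fold change was 0.32, against -0.11 over all genes. Library values did not overlap for 24 of these 28, where 65.3% of all genes had no overlap. The median of all genes depended on the scaling, at -0.02 after median-of-ratios scaling and 0.02 after quantile normalization. After the GC and length correction it was -0.15. All genes split into 3093 higher and 5353 lower, against 4157 and 4333 after median-of-ratios scaling and 4233 and 3849 after quantile normalization. All 5 falls and 17 rises kept their direction and call under both scalings. Lactate and glucose carriers, the hydroxylase Egln3, Ddit4 and Ankrd37 rose most, the enzymes of the glycolytic steps by smaller amounts. Egln1, Pfkm, Pfkfb3, Bnip3l and Ndrg1 fell with Hif1a. After the GC and length correction 14 of the 29 members tested were called higher and 7 lower, Hif1a included, where 18.1% of all genes with a GC content were called higher and 40.7% lower. In the same libraries the macrophage and leukocyte list had 6 genes higher and 1 lower of 8 (2 and 1 after the correction), and 1 of 8 fibroblast markers was higher and 7 lower (0 and 7 after the correction) than in Ad-GFP. Their part in the result was not tested.

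**Figure D4:**
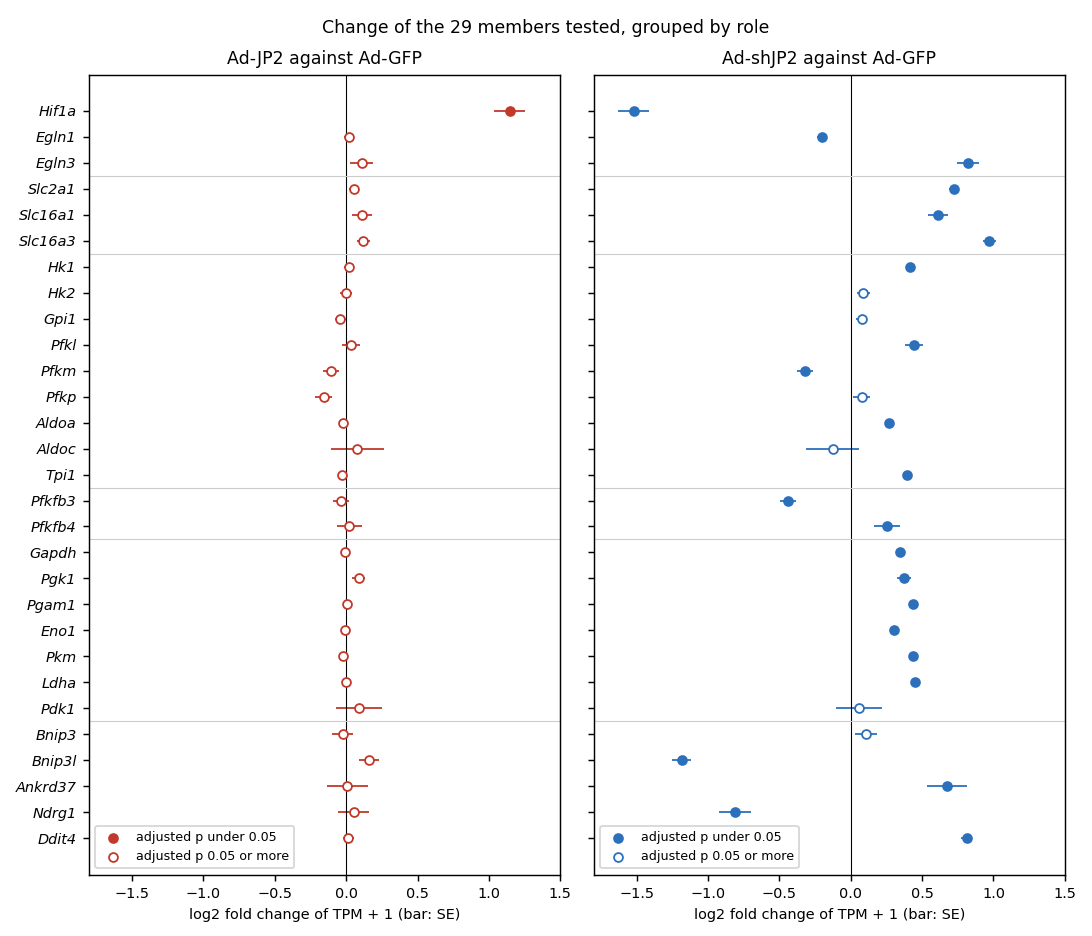
Log2 fold change (point) with its standard error (bar) for the 29 members tested, for Ad-JP2 (left) and Ad-shJP2 (right) against Ad-GFP; filled points passed an adjusted p of 0.05 and grey lines divide the roles. In Ad-JP2 Hif1a alone passed and the rest lie near 0, whereas in Ad-shJP2 17 filled points lie to the right and 6, with Hif1a lowest, to the left.

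The oxygen-sensing members were divided. Egln3, a hydroxylase that is itself induced by HIF1, had 10.3, 10.8 and 10.9 TPM in libraries labelled Ad-shJP2, against 6.34, 5.10 and 5.41 in Ad-GFP (0.82, SE 0.08, limma adjusted p = 1.8e-05). All 3 of these hairpin libraries were above all Ad-GFP libraries. Egln1, the main hydroxylase of Hif1a in most cells, had 61.3, 58.6 and 58.9 TPM in libraries labelled Ad-shJP2, against 68.1, 68.1 and 70.0 in Ad-GFP and fell by a small amount (-0.20, adjusted p = 0.000548). With median-of-ratios scaling Egln1 stood at -0.09 (adjusted p = 0.0326). The 2 hydroxylase messages thus went opposite ways.

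All 3 carriers rose. Slc16a3 had 105, 111 and 119 TPM in libraries labelled Ad-shJP2, against 58.2, 54.8 and 56.4 in Ad-GFP, 1.98-fold higher (0.97, SE 0.05, limma adjusted p = 2.5e-07), the largest rise among the members. Slc2a1, the basal glucose carrier, had 65.3, 64.3 and 66.8 TPM in libraries labelled Ad-shJP2, against 39.7, 39.6 and 38.6 in Ad-GFP (0.72, adjusted p = 2.9e-07). Slc16a1, which moves lactate and other monocarboxylates either way, had 12.5, 11.3 and 11.1 TPM in libraries labelled Ad-shJP2, against 7.67, 6.87 and 7.27 in Ad-GFP (0.61, adjusted p = 7.0e-05). Slc16a1 had a GC content of 42.9% and stood at 1.12 after the GC and length correction. Slc2a1 and Slc16a3 stayed called at 0.61 and 0.74.

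Of the 9 enzymes and isoforms of upper glycolysis, 4 rose, 1 fell and 4 did not pass. Aldoc, at low level, had overlapping values (-0.13). Hk1, the hexokinase of most tissues, had 109, 110.4 and 111 TPM in libraries labelled Ad-shJP2, against 83.5, 83.4 and 79.9 in Ad-GFP (0.42, limma adjusted p = 2.9e-06). Its relative Hk2, the form known to be induced by HIF1, had 21.9, 22.3 and 22.4 TPM in libraries labelled Ad-shJP2, against 21.0, 20.2 and 21.3 in Ad-GFP, without overlap but short of the threshold (0.09, adjusted p = 0.102). It passed after median-of-ratios scaling (0.20), after quantile normalization and after the GC and length correction (0.24).

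The phosphofructokinase subunits, which make the committed step, went in different directions. Pfkl, the liver-type subunit, rose (52.8, 60.1 and 57.8 TPM in libraries labelled Ad-shJP2, against 43.2, 40.4 and 41.0 in Ad-GFP; 0.44, limma adjusted p = 0.000243). Pfkm, the muscle-type subunit, fell (11.3, 11.6 and 11.3 TPM in Ad-shJP2, against 15.4, 14.1 and 14.1 in Ad-GFP; -0.32, adjusted p = 0.000847). Pfkp, the platelet-type subunit, had overlapping values (0.08, adjusted p = 0.308) and passed after median-of-ratios scaling (0.19, adjusted p = 0.0174). The bifunctional enzymes that set the activator of phosphofructokinase were split too. Pfkfb3 fell (11.3, 10.9 and 11.7 TPM in Ad-shJP2, against 16.0, 15.9 and 15.1 in Ad-GFP; -0.44, adjusted p = 0.000137). Pfkfb4 was called higher (5.40, 5.46 and 5.91 TPM in Ad-shJP2, against 4.06, 4.97 and 4.58 in Ad-GFP; 0.25, adjusted p = 0.0336), a call that ended without Ad-GFP replicate 1, Ad-GFP replicate 3 or any of the 3 Ad-shJP2 replicates, with no filter, and after the GC and length correction.

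From aldolase to lactate, the abundant enzymes rose by like amounts. Aldoa had 2052, 2023 and 2031 TPM in libraries labelled Ad-shJP2, against 1676, 1688 and 1698 in Ad-GFP (0.27, limma adjusted p = 9.4e-07). Gapdh, often used as a reference gene, had 1958, 1896 and 1978 TPM in libraries labelled Ad-shJP2, against 1540.3, 1532 and 1519 in Ad-GFP (0.34, adjusted p = 1.4e-06). These groups did not overlap, and the difference is many times the spread between libraries. Pkm had 1839, 1817 and 1819.7 TPM in libraries labelled Ad-shJP2, against 1354, 1349.7 and 1346 in Ad-GFP (0.44, adjusted p = 3.7e-08). Ldha, which turns pyruvate into lactate, had 1727, 1753 and 1741 TPM in libraries labelled Ad-shJP2, against 1276, 1274 and 1269.5 in Ad-GFP (0.45, adjusted p = 5.2e-08).

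Tpi1 (0.39), Pgk1 (0.37), Pgam1 (0.44) and Eno1 (0.30) lay in the same range, and 6 of the 7 tested members from Gapdh to Pdk1 were called higher. Pdk1, the kinase that holds pyruvate back from mitochondria, had 13.8, 18.9 and 22.2 TPM in libraries labelled Ad-shJP2, against 16.6, 20.6 and 14.9 in Ad-GFP, with overlap and no call (0.06, adjusted p = 0.769). Gpi1, the isomerase of an early step, had 375, 388 and 395 TPM in libraries labelled Ad-shJP2, against 371, 371 and 356 in Ad-GFP, without overlap but short of the threshold (0.08, adjusted p = 0.118), and passed with median-of-ratios scaling and without Ad-JP2 replicate 1. The exceptions to the calls of the abundant enzymes came from the GC and length correction, after which Aldoa was -0.004 (adjusted p = 0.862), Gapdh 0.04 (adjusted p = 0.232) and Eno1 0.04 (adjusted p = 0.0695), all without a call. Gpi1 turned to -0.14 (adjusted p = 0.0106). The median of all genes was -0.15 after this correction, against -0.11 without it. Tpi1, Pgam1, Pgk1, Pkm and Ldha stayed called at 0.15 to 0.33. The deposited lengths of Gapdh, Aldoa and Eno1 are 634, 1449 and 1579 bases. In Ad-shJP2 against Ad-GFP, genes under 1000 bases had a median log2 fold change of 0.002. Those of 1000 to 2000 bases had -0.03, and those of 4000 or more -0.40.

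Several of these genes have near-identical copies that the counting can split reads with. Eno1b, a near-identical relative of Eno1, was listed at 820.2 TPM in libraries labelled Ad-shJP2 and 656 in Ad-GFP, Pgam1-ps2 at 864 in Ad-shJP2 and 639.8 in Ad-GFP, and Pgk1-rs7 at 482 in Ad-shJP2 and 400.1 in Ad-GFP. For Pgam1 and Pgk1 the copy thus held more TPM than the member, so their levels are uncertain. With the copies named after a member added to it, a setting chosen after seeing the data, the calls of Aldoa, Gapdh, Pgk1, Pgam1, Eno1, Ldha and Bnip3l in Ad-shJP2 kept their direction.

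The hypoxia-induced members outside glycolysis were divided as well. Ddit4, an inhibitor of the mTOR growth pathway, had 45.6, 45.0 and 43.4 TPM in libraries labelled Ad-shJP2, against 25.0, 24.8 and 25.2 in Ad-GFP (0.81, SE 0.04, limma adjusted p = 2.6e-07). Ankrd37, a small ankyrin repeat protein induced in hypoxia, had 9.89, 10.6 and 11.2 TPM in libraries labelled Ad-shJP2, against 5.36, 8.29 and 5.37 in Ad-GFP (0.68, SE 0.14, adjusted p = 0.00266). For both genes every hairpin library lay above every Ad-GFP library. Bnip3l, a mitochondrial receptor that marks mitochondria for removal, fell: it had 10.2, 9.46 and 9.47 TPM in libraries labelled Ad-shJP2, against 22.0, 25.0 and 23.1 in Ad-GFP (-1.19, SE 0.07, adjusted p = 8.8e-07).

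Bnip3, its relative with the same known role, had 29.8, 28.1 and 29.8 TPM in libraries labelled Ad-shJP2, against 28.2, 28.7 and 24.5 in Ad-GFP, with overlap and no call (0.11, adjusted p = 0.247). It was called after median-of-ratios scaling (0.22, adjusted p = 0.0392). The Bnip3l pseudogene Bnip3l-ps, with which reads may be shared, went the same way as Bnip3l, at 12.2 TPM in Ad-shJP2 and 30.8 in Ad-GFP. With that copy added, Bnip3l was -1.27 in Ad-shJP2, and in Ad-JP2 it passed at 0.19 (adjusted p = 0.0206). Ndrg1, a gene strongly induced by hypoxia in many cells, fell too, with 4.33, 5.44 and 6.48 TPM in libraries labelled Ad-shJP2, against 10.2, 10.0 and 10.3 in Ad-GFP (-0.81, SE 0.11, adjusted p = 0.000198). Bnip3l and Ndrg1 had a GC content of 48.6% and 55.0%, and stood at -1.21 and -0.94 after the correction. The carbonic anhydrase Car9, among the most responsive HIF1 targets known, stayed at 0.523, 0.764 and 0.470 TPM in Ad-JP2 libraries, 0.329, 0.493 and 0.251 in Ad-shJP2 libraries and 0.370, 0.549 and 0.446 in Ad-GFP libraries. Eno2 had 0.374, 0.344 and 0.537 TPM in Ad-JP2 libraries, 0.424, 0.720 and 1.10 in Ad-shJP2 libraries and 0.333, 0.519 and 0.414 in Ad-GFP libraries. Neither was tested.

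Set against the rest of the members library by library, Hif1a stood apart from their median with either JP2 virus. On the log2(TPM + 1) scale, relative to the Ad-GFP mean, Hif1a was 1.12, 1.21 and 1.11 in the Ad-JP2 libraries, while the median of the other 28 members was 0.03, 0.01 and -0.02. In the libraries labelled Ad-shJP2 Hif1a was -1.58, -1.73 and -1.25, and the median of the others 0.31, 0.31 and 0.36. The Ad-GFP libraries themselves ranged from -0.08 to 0.06 for Hif1a. Both comparisons share these Ad-GFP libraries, so the values are given side by side as a description, with no test.

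**Figure D5:**
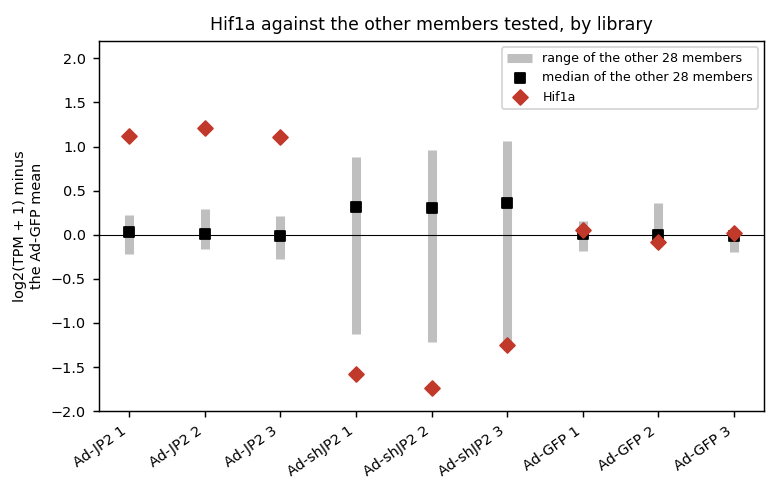
Log2(TPM + 1) minus the Ad-GFP mean for Hif1a (diamond), the median of the other 28 members tested (square) and their range (grey bar), in each of the 9 libraries. Values are without the GC and length correction. Hif1a lies above the range of the others in the Ad-JP2 libraries and below it in the Ad-shJP2 libraries. In Ad-shJP2 replicate 3 the gap is small (-1.25, against -1.22 for the lowest other member). The median stays near 0 in Ad-JP2 and between 0.31 and 0.36 in Ad-shJP2.

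The direct comparison of Ad-JP2 with the libraries labelled Ad-shJP2 shares its libraries with the other comparisons and gave 6 members called higher and 19 lower by limma, where 64.4% of all genes were called, 40.3% higher and 24.1% lower (5731 and 3421, against 4735 and 4634 after median-of-ratios scaling and 4026 and 5570 after quantile normalization). After the GC and length correction 11 were higher and 13 lower, where 48.2% of all genes with a GC content were higher and 18.1% lower. Hif1a, Egln1, Pfkm, Pfkfb3, Bnip3l and Ndrg1 were the 6 higher without it. The Pfkfb3 call ended with quantile normalization (0.12, adjusted p = 0.0749, against 0.40) and that of Pfkm with median-of-ratios scaling (0.09, adjusted p = 0.165, against 0.21). Library values did not overlap for 25 of the 29 members tested, where 67.1% of all genes had no overlap. Bnip3l stood at 26.2 ± 1.95 TPM in Ad-JP2 and 9.70 ± 0.409 in Ad-shJP2 (SD, n = 3; 1.34, adjusted p = 2.4e-07). Pfkp and Gpi1, which passed in neither comparison with Ad-GFP, were lower in Ad-JP2 (-0.23 and -0.12, adjusted p = 0.00767 and 0.0262). The Gpi1 call ended without Ad-JP2 replicate 2 or 3, without Ad-shJP2 replicate 2 or 3, with no filter, with no trend, with the 2 groups fitted alone and with quantile normalization, and turned to 0.23 after the GC and length correction. That of Pfkfb4 (-0.23) ended without Ad-GFP replicate 3, Ad-JP2 replicate 2 or 3 or any Ad-shJP2 replicate, with no filter, with the 2 groups fitted alone and after the GC and length correction (-0.02). Those of Ankrd37 and Tpi1 ended after that correction (-0.27 and -0.03), and Hk2 and Bnip3 passed after median-of-ratios scaling (-0.22 and -0.26). Pfkm turned to -0.07 with quantile normalization, and Aldoa, Gapdh and Eno1 turned to 0.16, 0.18 and 0.11 after the GC and length correction. The median of all genes in this comparison was 0.10, against -0.11 with quantile normalization and 0.22 after the GC and length correction.

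Beside the counts of related lists that follow stand the shares of all genes, 13.4% higher and 1.64% lower in Ad-JP2 and 21.8% higher and 37.7% lower in libraries labelled Ad-shJP2, both against Ad-GFP. Of 14 partners and regulators of Hif1a 13 were tested. In Ad-JP2 3 were higher and 0 lower than in Ad-GFP (limma, 1 lower at an unadjusted p under 0.05), and in libraries labelled Ad-shJP2 1 was higher and 9 lower. The Ad-shJP2 split was 2 and 8 after median-of-ratios scaling, 0 and 8 after quantile normalization and 1 and 11 after the GC and length correction. Cul2, the scaffold of the VHL ligase, averaged 19.4 TPM in Ad-JP2, 3.04 in Ad-shJP2 and 8.07 in Ad-GFP (log2 fold changes 1.17 and -1.20 against Ad-GFP, adjusted p = 0.0011 and 0.000186). The coactivators Ep300 (0.97 in Ad-JP2, -0.90 in Ad-shJP2) and Crebbp (0.63 in Ad-JP2) rose in Ad-JP2. Epas1, the gene of the related subunit HIF2, had 29.5 TPM in Ad-shJP2 and 61.9 in Ad-GFP (-1.05, adjusted p = 2.3e-07). Cited2, a target of HIF1 that limits it in return, was at 82.7 TPM in Ad-shJP2 and 195 in Ad-GFP (-1.22, adjusted p = 3.8e-07).

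Other HIF targets, beyond glycolysis, went both ways in libraries labelled Ad-shJP2. Of 21, 20 were tested, and 2 were higher and 0 lower in Ad-JP2 than in Ad-GFP (limma, 0 lower also at an unadjusted p under 0.05). In Ad-shJP2 6 were higher and 10 lower of 20, and the median log2 fold change was -0.20, against -0.11 over all genes. The split was even, at 8 and 8 after median-of-ratios scaling and 7 and 7 after quantile normalization. Vegfa, the vascular growth factor, was at 99.9 TPM in Ad-JP2, 40.2 in Ad-shJP2 and 76.2 in Ad-GFP (0.39 and -0.91 against Ad-GFP, adjusted p = 6.3e-05 and 4.3e-08), so it went in the directions of Hif1a. The transferrin receptor Tfrc did likewise (0.63 and -1.06), though its rise in Ad-JP2 lost its call after the GC and length correction (0.12). Bhlhe40 and Mxi1, both transcription repressors, fell in Ad-shJP2 (-0.96 and -0.90). The largest rise in the list, named after its values were seen, was that of heme oxygenase Hmox1, at 676 TPM in Ad-shJP2 and 376 in Ad-GFP (0.84, adjusted p = 4.9e-09).

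Of 15 tested genes that handle pyruvate and lactate, 2 were higher, a share like that of all genes, and 1 lower in Ad-JP2. In libraries labelled Ad-shJP2 2 were higher and 11 lower, or 2 and 8 after the GC and length correction, 3 and 9 after median-of-ratios scaling and 3 and 8 after quantile normalization. In Ad-shJP2 the median log2 fold change was -0.42, and -0.22 after the correction. Pdha1, of the pyruvate dehydrogenase that feeds mitochondria, averaged 133 TPM in Ad-JP2, 55.3 in Ad-shJP2 and 114 in Ad-GFP (0.22 and -1.03 against Ad-GFP, adjusted p = 0.00101 and 1.4e-08). Its rise in Ad-JP2 lost the call after the GC and length correction (0.06). Dld, the dehydrogenase subunit shared with other complexes, averaged 34.5 TPM in Ad-JP2, 5.46 in Ad-shJP2 and 19.3 in Ad-GFP (0.81 and -1.65, 0.41 and -1.28 after the correction). Pdk2 and Pdk4, kinases that switch this enzyme off, fell in Ad-shJP2 (-0.66 and -0.59), the Pdk4 call ending with quantile normalization. In Ad-JP2 Bsg, the chaperone of the lactate carriers, was lower by a small amount (-0.06, adjusted p = 0.0297), and turned to 0.12 after the correction (adjusted p = 0.00147).

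The pentose phosphate branch, which leaves glycolysis after hexokinase, had 1 of 7 genes higher and 0 lower in Ad-JP2 (limma, 3 lower at an unadjusted p under 0.05) and 5 higher and 1 lower in libraries labelled Ad-shJP2. After the GC and length correction it had 3 higher and 0 lower in Ad-JP2 and 3 higher and 2 lower in Ad-shJP2. Taldo1, transaldolase, had 435 TPM in Ad-shJP2 and 286 in Ad-GFP (0.60, adjusted p = 3.5e-08). Rpe rose in Ad-JP2 (0.70) and fell in Ad-shJP2 (-0.42), and the fall lost its call after the GC and length correction (-0.04). Rpia and Pgd rose in Ad-shJP2 (0.46 and 0.30). Of 17 other isozymes of glycolysis 9 were tested, among them Eno1b, the near-identical relative of Eno1 named above. In Ad-JP2 0 were called in either direction (limma, 0 also at an unadjusted p under 0.05), and in Ad-shJP2 4 were higher and 4 lower. That split was 4 and 2 after median-of-ratios scaling and 5 and 1 after quantile normalization. Adpgk, a glucokinase that uses ADP, rose in Ad-shJP2 (0.46), as did Pfkfb1 (0.94, 3.50 TPM in Ad-shJP2 and 1.36 in Ad-GFP), while Pfkfb2 (-0.76) and Pgam2 (-0.53) fell at low levels, and the Pgam2 call ended with quantile normalization.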

How the data were processed

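Primary mouse cardiac fibroblasts carried 1 of 3 adenoviruses (3 libraries each), and stranded polyA libraries were made, per the labels' protocols. The authors deposited a table of TPM (length-corrected transcript abundance scaled to 1 total in every library) per gene and library, with a gene length and 1 effective length per gene. Per the submitters' processing notes the tools were Salmon, DRAGEN and DESeq2 and the build GRCm39, with no role, order or version given in the sources used here. TPM hold no read counts. Approximate depths were read from the steps of low values, where TPM times effective length came within 0.1 of a whole read for 94.4% of values in Ad-GFP replicate 3 and for 39.4% to 59.8% in the other libraries, so no count test was run.

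Genes with at least 1 TPM in at least 3 libraries (14215) were tested with limma 3.58.1 in R 4.3.3 on log2(TPM + 1), with a mean-variance trend and the 3 group means in 1 model over all 9 libraries. The two-sided p-values received Benjamini-Hochberg adjustment across the 14215 genes, and a call needed an adjusted p under 0.05. Adjusted p-values are from this test, or, where an alternative setting is named, from the same test over the genes of that setting. Fold changes in log2 are on the log2(TPM + 1) scale, which understates the change of low genes. Folds not in log2 are ratios of mean TPM. TPM are shares of each library, so a level is relative to all other messages. As the labels do not say that replicates were separate cultures or animals, p-values measure the spread between these libraries, which may be technical. The fit was tested on simulated data with planted changes. No overlap means that every library of 1 group lay above every library of the other.

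The members and the pathway and marker lists were chosen with earlier results of these data known. Every member is accounted for. Of each pathway list, at most 4 genes per comparison with Ad-GFP are named, those with the largest change among the called without overlap. GC content came from transcripts on GRCm38, matched by Ensembl gene identifier (98.7% of tested genes). The GC and length correction fitted each library's deviation from the mean of all libraries with a spline on GC content and log2 length. It then removed that trend from the library. Promoters came from RefSeq. Ndrg1 and Bnip3l had no entry there. The alternatives were a pseudocount of 0.1, no filter, a filter at 5 TPM, median-of-ratios scaling, quantile normalization, no trend, the 2 groups alone, the replicate number as a block, the GC and length correction with and without that block, and leaving out each library. Adding named gene copies to a member was added after seeing the data.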

Additional observations from a re-analysis of the deposited data

How the results depend on the processing

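Hif1a kept its direction and its call in all 3 comparisons under every alternative run. Its log2 fold change in Ad-JP2 against Ad-GFP ranged from 0.67 to 1.19, in libraries labelled Ad-shJP2 against Ad-GFP from -1.70 to -0.96, and in Ad-JP2 against Ad-shJP2 from 1.63 to 2.90. The values nearest 0 came from the GC and length correction.

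Of 1593 recomputed values of the other members, 1436 kept their direction where called and their side of the threshold, 38 lost a call, 27 gained one, 27 reversed with a call under either setting, and 65 changed sign with no call under either. Under the GC and length correction, with or without the replicate block, reversed values in Ad-JP2 against Ad-GFP were -0.29 for Slc16a1, 0.15 for Aldoa, 0.12 for Tpi1, 0.22 for Gapdh, 0.15 for Eno1, 0.081 for Pkm and 0.14 for Ldha. In Ad-shJP2 against Ad-GFP they were -0.14 for Gpi1 and -0.0041 for Aldoa, and in Ad-JP2 against Ad-shJP2 0.23 for Gpi1, 0.16 for Aldoa, 0.18 for Gapdh and 0.11 for Eno1. With this correction the median of all genes was 0.07 in Ad-JP2 and -0.15 in Ad-shJP2, both against Ad-GFP. In Ad-JP2 against Ad-shJP2 it was 0.22. Quantile normalization reversed Pfkm to -0.075 in Ad-JP2 against Ad-shJP2, where the median of all genes was -0.11. The cause was not tested. Members called higher in Ad-JP2 against Ad-GFP numbered 12 with the GC and length correction and 11 with the block as well, against 1. Of all 14025 tested genes with a GC content 2134 (15.2%) and 1819 were higher, against 1902 of 14215 (13.4%). Members called lower there numbered 1 under both and 2 with quantile normalization, against 0. Of all genes 446 (3.18%) and 339 were lower under both, and 748 with quantile normalization, against 233 (1.64%). In Ad-JP2 against Ad-shJP2 members called higher numbered 11 under both, against 6. Of all genes 6754 (48.2%) and 6693 were higher, against 5731 (40.3%). Genes called lower in Ad-JP2 against Ad-GFP numbered 399 with median-of-ratios scaling, 748 with quantile normalization, 100 with no trend and 446 with the GC and length correction, against 233, and ran from 114 to 283 with 1 library left out (125 without Ad-GFP replicate 1, 114 without Ad-GFP replicate 2, 134 without Ad-GFP replicate 3 and 132 without Ad-JP2 replicate 2). Genes called lower in Ad-JP2 against Ad-shJP2 numbered 5570 with quantile normalization, against 3421.

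Deviations of same-numbered libraries from their group means correlated between -0.11 and 0.11, and those of differently numbered libraries between -0.20 and 0.16. With 3 libraries a group, these values cannot show whether a replicate number stands for a shared culture or animal. The replicate block gave Hif1a log2 fold changes of 1.14 in Ad-JP2 and -1.52 in Ad-shJP2 against Ad-GFP. It called 16 members higher and 6 lower in Ad-shJP2 against Ad-GFP, where 17 and 6 were called without it. Of all 14215 genes it called 3015 higher and 5211 lower there, against 3093 and 5353. Among members it ended the Pfkfb4 calls (limma adjusted p = 0.0588 in Ad-shJP2 against Ad-GFP and 0.0734 in Ad-JP2 against Ad-shJP2). Car9, Eno2 and Aldoc were measured at a few TPM or less, and the part of depth in their spread was not tested.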
